A study of Mus musculus with 6 samples.

Results

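Jak2, the kinase that ruxolitinib inhibits together with Jak1, and 8 genes for cytokine receptor chains that signal through it in blood formation were followed in CD8-selected bone marrow cells of mice with immune bone marrow failure. The 9 genes were chosen by symbol as Jak2, Epor, Csf3r, Csf2ra, Il3ra, Csf2rb, Csf2rb2, Il6ra and Il6st, out of 54532 genes in the count table and 13480 tested. All 9 were in the table and all 9 passed the filter on low counts.

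The ruxolitinib group was 3 pools (numbered 1 to 3) of bone marrow cells from female CByB6F1 mice with immune bone marrow failure that received ruxolitinib. The control group was 3 pools (4 to 6) from female CByB6F1 mice that also had bone marrow failure and did not receive ruxolitinib. All animals were 2 to 5 months old, so every library, controls included, came from diseased marrow and no healthy marrow was compared. Cells were taken with CD8 microbeads from 2 to 3 mice per pool, so each library averages several animals.

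JAK2 is a tyrosine kinase bound to the inner part of cytokine receptors that have no kinase of their own. When a cytokine joins the receptor chains, JAK2 molecules activate each other and phosphorylate the receptor, STAT transcription factors dock and enter the nucleus, and feedback inhibitors of the SOCS family are transcribed. In marrow the erythropoietin receptor drives red cell formation, the G-CSF receptor drives neutrophil formation, the IL-3, IL-5 and GM-CSF receptors share a beta chain and act on myeloid cells, and the IL-6 receptor family shares the chain gp130.

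Libraries held 13829808 to 14139605 counts with ruxolitinib and 15740514 to 17708196 counts in controls. Expression is given as CPM, counts relative to the library total, after TMM scaling, which evens out differences in composition between libraries. All 15 CD8 T cell marker genes were detected in every library, and all 15 were lower with ruxolitinib under TMM scaling, with a median log2 fold change of -1.72 against 0.03 over all genes tested. Haemoglobin genes took 13.4 to 22.6% of counts with ruxolitinib and 0.178 to 0.258% in controls. Of tested marker genes, 13 of 13 red cell, 11 of 15 granulocyte and 14 of 16 monocyte and macrophage genes were higher with ruxolitinib. So were 11 of 11 basophil, mast cell and eosinophil, 9 of 10 B cell and 6 of 9 progenitor genes. The same held for 3 of 5 megakaryocyte, 6 of 8 plasmacytoid dendritic and 7 of 8 stromal and endothelial genes. Over all genes tested, 29.9% were called higher. The granulocyte, monocyte and macrophage, and plasmacytoid dendritic lists each held 1 gene called lower. Of the higher marker genes, 6 of the 9 B cell genes and a few of the other lists had at most 5 counts in any control pool. Those genes passed the filter through the ruxolitinib pools. RNA of many other marrow cell types was thus present beside that of CD8 T cells. In such bulk samples fewer cells of a type and less RNA per cell cannot be told apart.

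Of the 9 genes, 8 were higher and 1, Il3ra, was lower with ruxolitinib by edgeR's quasi-likelihood test at an adjusted p under 0.05. Among all 13480 genes tested, 29.9% were called higher and 25.3% lower, 55.2% in all. For none of the 9 did the groups overlap: all 3 ruxolitinib pools lay above all 3 control pools for 8 genes, as for 35.7% of all genes tested, and below them for Il3ra, as for 30.3%, 66% in all. The smallest rises were those of Jak2 and Il6st, the largest those of Epor and Csf3r. The median log2 fold change of the 9 genes was 2.48, against 0.03 over all genes tested.

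**Figure D1:**
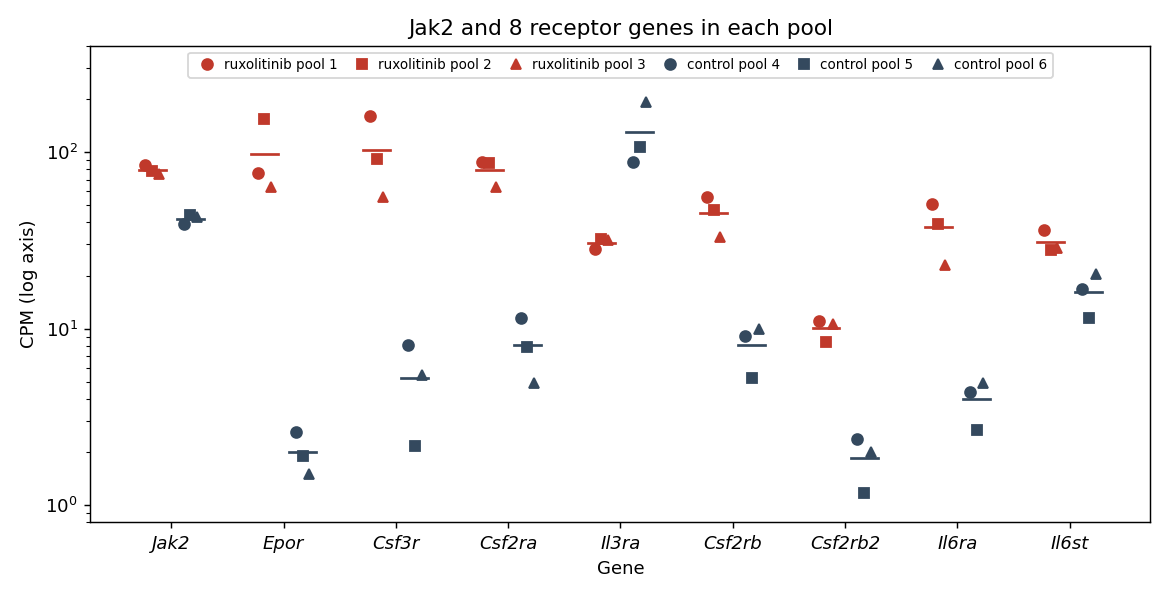
Expression of Jak2 and 8 receptor genes in each pool, in CPM on a log axis, with ruxolitinib pools in red left of control pools in dark grey and a bar at each group mean. The groups are apart for every gene, and Il3ra is the only gene of the 9 with the control pools on top, at 87.8 to 192 CPM.

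The kinase itself had the smallest log2 fold change of the 8 genes that rose, close to that of Il6st. Jak2 (ENSMUSG00000024789, chromosome 19, mm10 positions 29251828 to 29313080, plus strand) had 84.8, 78.0 and 74.7 CPM in the ruxolitinib pools, against 39.3, 43.8 and 43.0 CPM in the control pools. Both groups were tight, and the lowest ruxolitinib pool stood well above the highest control pool. The mean was 79.2 ± 5.12 CPM with ruxolitinib and 42.0 ± 2.41 CPM in controls (SD, n = 3 each), a log2 fold change of 0.91 ± 0.18 (SE, 95% interval 0.51 to 1.32, edgeR adjusted p = 0.00211). That is a fold of 1.88, and 71.8% of all genes tested had a smaller log2 fold change.

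The other JAK kinases did not pass the test in either direction. Jak1, the partner kinase of many cytokine receptors and also a target of ruxolitinib, averaged 320 ± 45.5 CPM with ruxolitinib and 270 ± 21.5 CPM in controls (SD, n = 3 each; log2 fold change 0.25 ± 0.21 (SE), edgeR adjusted p = 0.345). Jak3, which works with the common gamma chain in lymphocytes, had 76.6, 76.8 and 169 CPM with ruxolitinib, against 285, 253 and 115 CPM in controls. Ruxolitinib pool 3 and control pool 6 made the groups overlap for Jak3. Its log2 fold change was -1.02 ± 0.40 (SE, edgeR adjusted p = 0.0545; 0.89 when scaled to CD8 T cell genes), and it passed with DESeq2 (adjusted p = 0.0232) and with limma-voom (adjusted p = 0.0499). Tyk2, which pairs with other JAKs at several receptors, had a log2 fold change of 0.77 ± 0.32 (SE, edgeR adjusted p = 0.0670) and passed with DESeq2 (adjusted p = 0.0359) and limma-voom (adjusted p = 0.0426).

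Jak2 was also set against the CD8 T cell genes, which were themselves lower with ruxolitinib. In a fit scaled to those genes the median log2 fold change of all genes tested was 2.10 and 72.4% of genes were called higher, so values on that scale are to be read against 2.10. The log2 ratio of Jak2 to the mean of the 15 CD8 T cell genes was -0.31, -0.75 and -2.01 in the ruxolitinib pools, against -4.14, -3.95 and -3.56 in the control pools. Every ruxolitinib pool had the higher ratio, and pool 3, which had the highest CD8 T cell gene level of the ruxolitinib pools, lay closest to the controls. The mean difference of 2.86 had an exact two-sided permutation p of 0.1, the smallest that 3 against 3 libraries allow (0.127 after Benjamini-Hochberg adjustment over the 14 ratios computed). Marker genes of red cells, granulocytes and macrophages were higher in the same pools, and the part of those cells in the higher Jak2 was not tested.

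The erythropoietin receptor had the largest change of the 9. Epor (ENSMUSG00000006235, chromosome 9, 21958897 to 21963506, minus strand), which binds the hormone that keeps red cell precursors alive, had 75.9, 154 and 63.6 CPM with ruxolitinib, against 2.60, 1.89 and 1.49 CPM in controls. All control pools were low, with 47, 29 and 24 counts, while ruxolitinib pool 2 stood above the other ruxolitinib pools. The mean was 97.9 ± 49.1 CPM with ruxolitinib and 2.00 ± 0.560 CPM in controls (SD, n = 3 each), a log2 fold change of 5.60 ± 0.42 (SE, 95% interval 4.66 to 6.55, edgeR adjusted p = 2.09e-05). The fold was 48.6, and 97.5% of all genes tested had a smaller log2 fold change.

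All red cell marker genes tested were higher too. Their geometric mean was 1014, 1255 and 620 CPM with ruxolitinib, against 8.77, 6.06 and 3.14 CPM in controls, and their summed level was 102464 to 184652 CPM with ruxolitinib and 1604 to 2319 CPM in controls. Klf1 and Epb42, an erythroid transcription factor and a red cell membrane protein, had no count in control pool 6, and each of the other genes of the list found in the table had counts in all libraries. Epor over this list had a log2 ratio of -3.74, -3.02 and -3.28 with ruxolitinib, against -1.74, -1.65 and -1.04 in controls. The ruxolitinib pools thus had less Epor per unit of red cell marker RNA, with a difference of -1.87 (exact two-sided permutation p = 0.1, adjusted 0.127). The ratio in control pool 6 depends in part on the prior count given to Klf1 and Epb42. The part of red cells in the higher Epor was not tested.

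The stretch before the Epor start is shown because the letters AGATAA, a form of the site that GATA factors of red cells bind, occur there. It lies 54 bases before the start of the RefSeq transcript, as its reverse complement TTATCT, in capitals (GRCm38.p6, chr9:21963591-21963670, minus strand, RefSeq).
Epor, bases 94 to 15 before the start: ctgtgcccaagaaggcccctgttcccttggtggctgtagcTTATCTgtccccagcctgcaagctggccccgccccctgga
On either strand, AGATAA was found in the 250 bases before the start of 2 of the 8 genes with an entry, Epor and Il6ra, and in 9.99% of 32851 RefSeq promoters. The match describes letters, not binding.

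The G-CSF receptor followed Epor in size. Csf3r (ENSMUSG00000028859, chromosome 4, 126024550 to 126044440, plus strand), the receptor that neutrophil precursors and neutrophils use, had 161, 91.2 and 55.9 CPM with ruxolitinib, against 8.13, 2.16 and 5.47 CPM in controls. The spread within each group was wide, and the groups still did not overlap. The log2 fold change was 4.28 ± 0.53 (SE, 95% interval 3.10 to 5.46, edgeR adjusted p = 0.000188), a fold of 19.4 between 103 ± 53.6 CPM with ruxolitinib and 5.25 ± 2.99 CPM in controls (SD, n = 3 each).

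Most granulocyte genes were higher as well. The list's geometric mean was 372, 322 and 208 CPM with ruxolitinib, against 116, 28.8 and 70.1 CPM in controls, and its summed level ran from 8935 to 20689 CPM with ruxolitinib and from 1582 to 6104 CPM in controls. The list was not uniform: its log2 fold changes ran from -1.04 for Prtn3 to 5.46 for Mmp8. Among the enzymes of early granules, Mpo was called higher (1.24, edgeR adjusted p = 0.0376), and Elane (0.30) and Ctsg (0.27) did not pass. The lower call of Prtn3, which is of the same kind, was lost by limma-voom, under total-count scaling and CD8 T cell gene scaling and with any pool but control pool 5 left out. The log2 ratio of Csf3r to the list was -1.21, -1.82 and -1.89 with ruxolitinib, against -3.83, -3.72 and -3.67 in controls. The ratio was higher in every ruxolitinib pool, by 2.10 (exact two-sided permutation p = 0.1, adjusted 0.127). The part of granulocytes in the higher Csf3r was not tested.

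**Figure D2:**
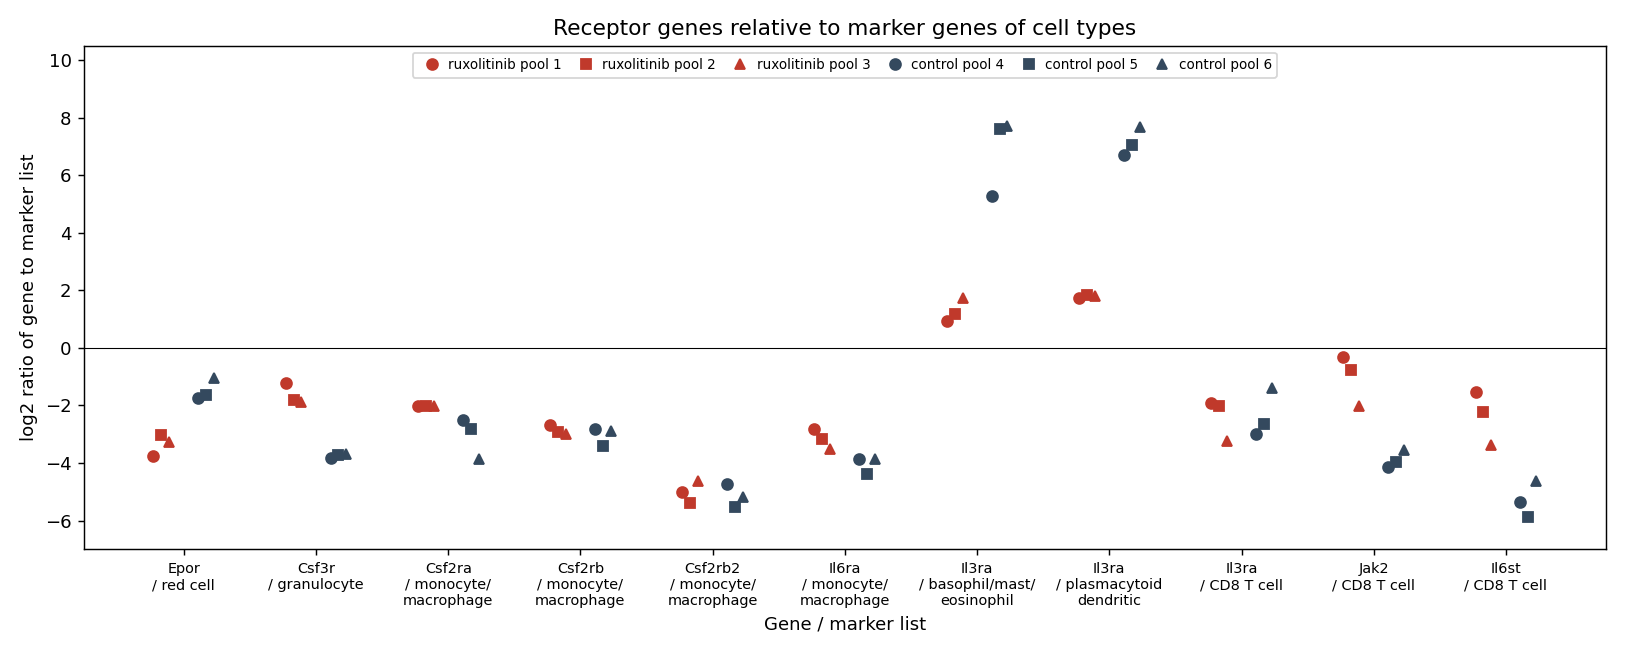
Log2 ratio of each receptor gene, or Jak2, to the mean of a marker list in the same library, with ruxolitinib pools in red left of control pools in dark grey. Csf2rb and Csf2rb2 over monocyte and macrophage genes and Il3ra over CD8 T cell genes have overlapping groups, whereas Il3ra over plasmacytoid dendritic genes is 5.34 lower with ruxolitinib.

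In the family of IL-3, IL-5 and GM-CSF receptors, 3 of 4 genes were higher and Il3ra was lower. Csf2ra (ENSMUSG00000059326, chromosome 19, 61224402 to 61228418, minus strand), the chain that gives the GM-CSF receptor its ligand, had 87.7, 86.7 and 63.8 CPM with ruxolitinib, against 11.4, 7.91 and 4.91 CPM in controls. All ruxolitinib pools were several times above all control pools. The mean was 79.4 ± 13.5 CPM with ruxolitinib and 8.09 ± 3.27 CPM in controls (SD, n = 3 each), a log2 fold change of 3.29 ± 0.32 (SE, 95% interval 2.57 to 4.01, edgeR adjusted p = 5.36e-05).

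The Csf2ra promoter stretch is shown because a purine-rich GAGGAA, the core that the myeloid factor PU.1 and other ETS factors bind, occurs there side by side in 2 copies, in capitals, 14 and 8 bases before the start (GRCm38.p6, chr19:61228419-61228498, minus strand, RefSeq).
Csf2ra, bases 80 to 1 before the start: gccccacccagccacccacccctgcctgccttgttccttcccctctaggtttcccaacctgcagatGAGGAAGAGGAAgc
GAGGAA or its reverse complement TTCCTC was found in the 250 bases before the start of 4 of the 8 genes, Csf2ra, Csf3r, Csf2rb2 and Il6ra, and in 23.3% of all 32851 promoters. The STAT-like spacing TTCNNNGAA was found only before Csf2rb2 among the 8 genes and in 7.02% of all promoters, and CCACACCC, a form bound by KLF factors, also only before Csf2rb2 and in 3.20% of all promoters, on either strand.

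Both beta chain genes were higher. Csf2rb (ENSMUSG00000071713, chromosome 15, 78325752 to 78353847, plus strand), which joins the alpha chains of all 3 receptors, had 55.9, 46.9 and 33.0 CPM with ruxolitinib, against 9.12, 5.23 and 9.89 CPM in controls. Csf2rb2 (ENSMUSG00000071714, chromosome 15, 78282507 to 78305721, minus strand), a second beta chain of mice that works with the IL-3 alpha chain, had 11.1, 8.43 and 10.6 CPM with ruxolitinib, against 2.38, 1.18 and 1.99 CPM in controls. Neither gene's groups overlapped, and per kilobase Csf2rb2 was the lower of the pair in every pool. Csf2rb had a log2 fold change of 2.48 ± 0.31 (SE, 95% interval 1.79 to 3.17, edgeR adjusted p = 0.000196), with means of 45.3 ± 11.6 CPM with ruxolitinib and 8.08 ± 2.50 CPM in controls (SD, n = 3 each). Csf2rb2 had a log2 fold change of 2.43 ± 0.35 (SE, 95% interval 1.64 to 3.22, edgeR adjusted p = 0.000418), with means of 10.05 ± 1.42 CPM with ruxolitinib and 1.85 ± 0.614 CPM in controls (SD, n = 3 each).

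The beta chain genes are near copies, so their counts are uncertain where reads match both. Their coding sequences of 2691 bases (Csf2rb) and 2637 bases (Csf2rb2) were identical at 95.3% of 2629 aligned positions, with a longest identical run of 242 bases. Of the 50-base windows of the Csf2rb coding sequence 26.3% occurred unchanged in Csf2rb2 transcripts, and of the 100-base windows 11%. A stretch with the median number of differences and the stretch with most differences are shown to give a view of how far a read can tell the genes apart (chromosome 15, coding strand, GENCODE M21; capitals mark bases that differ in the partner).
Csf2rb, coding bases 1513 to 1602: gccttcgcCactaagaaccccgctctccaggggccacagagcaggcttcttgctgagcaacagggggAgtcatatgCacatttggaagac
Csf2rb2, coding bases 1510 to 1599: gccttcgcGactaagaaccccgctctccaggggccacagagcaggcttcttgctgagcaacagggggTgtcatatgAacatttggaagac
Csf2rb, coding bases 309 to 398: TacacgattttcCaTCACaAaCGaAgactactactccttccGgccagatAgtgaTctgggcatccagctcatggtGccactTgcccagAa
Csf2rb2, coding bases 312 to 401: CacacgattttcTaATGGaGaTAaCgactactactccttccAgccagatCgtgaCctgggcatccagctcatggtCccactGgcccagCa
The first pair differs at 3 of 90 bases and the second at 16 of 90. With the counts of both genes added up, which does not depend on how such reads were shared out unless they were discarded, the log2 fold change was 2.47.

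Of the monocyte and macrophage genes, 14 of 16 were higher with ruxolitinib, against 29.9% of all genes tested, and 1 was lower. The lower gene was Ccr2 (log2 fold change -1.58, edgeR adjusted p = 0.00142), and Cx3cr1 did not pass (-0.31, edgeR adjusted p = 0.356). The list's geometric mean was 358, 354 and 261 CPM with ruxolitinib, against 64.6, 56.1 and 72.6 CPM in controls. Its summed level was 9291 to 15089 CPM with ruxolitinib and 1536 to 1936 CPM in controls. Csf2rb over the list had a log2 ratio of -2.68, -2.91 and -2.98 with ruxolitinib, against -2.82, -3.41 and -2.87 in controls, and Csf2rb2 over the list differed by 0.15. Groups overlapped for both, with exact two-sided permutation p = 0.6 and 0.7 (adjusted 0.70 and 0.754), which does not show that the ratios were equal. Csf2ra over the list was -2.03 in all 3 ruxolitinib pools, against -2.49, -2.82 and -3.88 in controls, a difference of 1.03 that ranged from 0.63 to 1.32 when single pools were left out (exact two-sided permutation p = 0.1, adjusted 0.127). The part of monocytes and macrophages in the higher Csf2ra, Csf2rb and Csf2rb2 was not tested.

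The IL-3 receptor alpha chain was the only gene of the 9 that was lower. Il3ra (ENSMUSG00000068758, chromosome 14, 14346275 to 14356011, plus strand), which binds IL-3 and is known in mouse marrow from progenitors, basophils and mast cells, had 28.2, 32.3 and 31.8 CPM with ruxolitinib, against 87.8, 108 and 192 CPM in controls. The ruxolitinib pools were tight, whereas control pool 6 stood above the other controls. Il3ra averaged 30.7 ± 2.21 CPM with ruxolitinib and 129 ± 55.6 CPM in controls (SD, n = 3 each). It fell by 2.07 ± 0.30 on the log2 scale (SE, 95% interval -2.74 to -1.41, edgeR adjusted p = 0.000396), and 4.16% of all genes tested had a smaller log2 fold change.

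Marker genes of cells known to carry this chain, basophils and mast cells and, in humans, plasmacytoid dendritic cells, were mostly higher where Il3ra was lower. Basophil, mast cell and eosinophil genes had a geometric mean of 14.7, 14.3 and 9.60 CPM with ruxolitinib, against 2.24, 0.544 and 0.921 CPM in controls, and a summed level of 403 to 609 CPM with ruxolitinib and 39.7 to 70.3 CPM in controls. Of the plasmacytoid dendritic genes, 6 of 8 were higher, against 29.9% of all genes tested. The defining Siglech, Klk1 and Ly6d had no count in any control pool. These 3 genes passed the filter on low counts through the ruxolitinib pools, so the count of 6 is partly set by that filter. Bst2, which interferon also induces, was the single gene of that list called lower, at 40.1 ± 8.63 CPM with ruxolitinib and 209 ± 7.02 CPM in controls (SD, n = 3 each), and Runx2 also lay below the controls in every ruxolitinib pool without passing (log2 fold change -0.68, edgeR adjusted p = 0.0523). The summed level of the list was 112 to 129 CPM with ruxolitinib and 246 to 280 CPM in controls. Il3ra over the basophil, mast cell and eosinophil list had a log2 ratio of 0.95, 1.18 and 1.73 with ruxolitinib, against 5.29, 7.63 and 7.71 in controls. Every control pool was far above every ruxolitinib pool, with a difference of -5.59, and of -5.34 for the plasmacytoid dendritic list (exact two-sided permutation p = 0.1, adjusted 0.127, for each). The size of the plasmacytoid dendritic difference depends on the prior count given to the genes without counts. Some genes of the basophil, mast cell and eosinophil list also had no count in control pool 5 or 6. The size of that difference thus depends in part on the prior count too. The part of these cells in the Il3ra values was not tested.

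Relative to the CD8 T cell genes, Il3ra had no separation between groups. The log2 ratio was -1.90, -2.03 and -3.24 in the ruxolitinib pools, against -2.98, -2.66 and -1.39 in the control pools. The ranges overlapped, with a mean difference of -0.04 (exact two-sided permutation p = 1.0) that became 0.38 without ruxolitinib pool 3 and 0.43 without control pool 6. This ratio was added after Il3ra was seen to be lower. When all genes were scaled to the CD8 T cell genes, Il3ra had a log2 fold change of -0.11 ± 0.58 (SE, edgeR adjusted p = 0.870), so its call was lost under that scaling. The summed level of the CD8 T cell list was 1798 to 5212 CPM with ruxolitinib and 10359 to 12665 CPM in controls, and the part of CD8 T cells in the lower Il3ra was not tested.

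**Figure D3:**
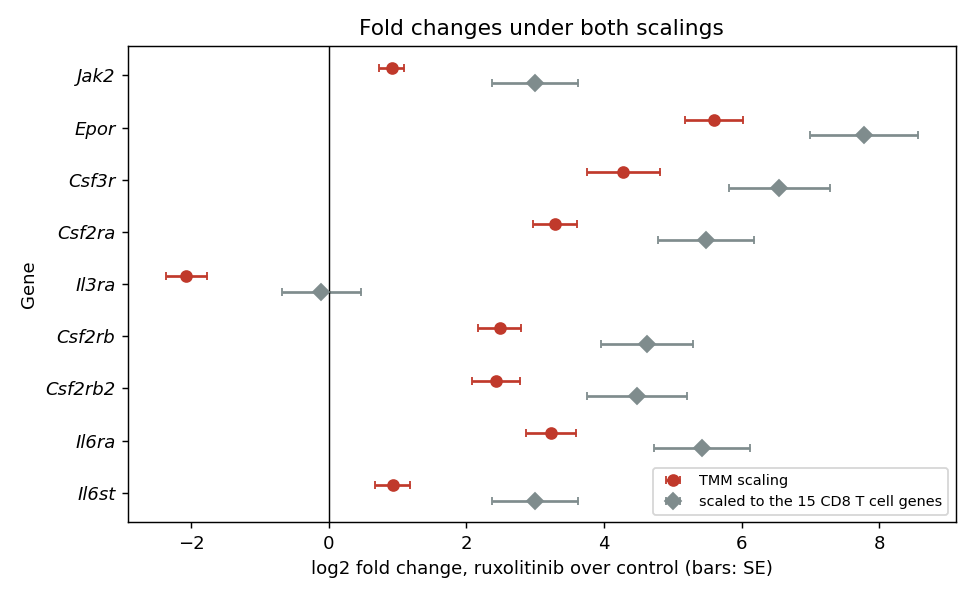
Log2 fold change of Jak2 and the 8 receptor genes, ruxolitinib over control, with the SE as bars, under TMM scaling (red circles) and scaled to the 15 CD8 T cell genes (grey diamonds). Scaling to CD8 T cell genes moves all genes to the right, with Il3ra at -0.11 and Jak2 at 3.00.

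Both IL-6 receptor chains were higher. Il6ra (ENSMUSG00000027947, chromosome 3, 89864059 to 89913196, minus strand), the chain that binds IL-6, had 50.6, 39.3 and 22.9 CPM with ruxolitinib, against 4.37, 2.68 and 4.91 CPM in controls. Il6st (ENSMUSG00000021756, chromosome 13, 112464070 to 112510086, plus strand) encodes gp130, the signalling chain shared by the whole family, and had 36.0, 27.9 and 28.7 CPM with ruxolitinib, against 16.8, 11.4 and 20.3 CPM in controls. Both genes had groups apart, but for Il6st the lowest ruxolitinib pool was not far above the highest control pool. Il6ra had a log2 fold change of 3.23 ± 0.36 (SE, 95% interval 2.43 to 4.03, edgeR adjusted p = 0.000109), with means of 37.6 ± 13.9 CPM with ruxolitinib and 3.99 ± 1.17 CPM in controls (SD, n = 3 each). Il6st had a log2 fold change of 0.93 ± 0.26 (SE, 95% interval 0.36 to 1.503, edgeR adjusted p = 0.0120), with means of 30.9 ± 4.48 CPM with ruxolitinib and 16.2 ± 4.49 CPM in controls (SD, n = 3 each). The Il6st call was lost without ruxolitinib pool 1 (0.83, edgeR adjusted p = 0.0572) and without control pool 5 (0.74, edgeR adjusted p = 0.0543).

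The balance of the IL-6 chains was compared within each library. Per length, the log2 ratio of Il6ra to Il6st was 0.85, 0.85 and 0.03 with ruxolitinib, against -1.58, -1.72 and -1.68 in controls. Il6ra was thus the more abundant chain per kilobase in every ruxolitinib pool and the less abundant one in every control pool, a difference of 2.24 (exact two-sided permutation p = 0.1, adjusted 0.127). This ratio does not depend on how the libraries were scaled. Il6ra over monocyte and macrophage genes was higher by 0.87, and Il6st over CD8 T cell genes by 2.91 (beside the median of 2.10 for all genes scaled to those genes), with no overlap of groups in either (exact two-sided permutation p = 0.1, adjusted 0.127, for each). The part of monocytes and macrophages in the higher Il6ra and Il6st was not tested.

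The alpha and beta chains of the IL-3 and GM-CSF receptors were compared in the same way. Per length, the log2 ratio of Il3ra to both beta chain genes together was -0.08, 0.40 and 0.66 with ruxolitinib, against 4.07, 5.21 and 5.18 in controls. IL-3 alpha chain RNA was thus near the level of beta chain RNA in the ruxolitinib pools and many times above it in the control pools, a difference of -4.49. For Csf2ra over both beta chain genes the ratio was 2.24, 2.51 and 2.35 with ruxolitinib, against 1.81, 2.13 and 0.58 in controls. These groups lay close to each other apart from control pool 6, with a difference of 0.86 that ranged from 0.39 to 1.17 when single pools were left out. The exact two-sided permutation p was 0.1 for each (adjusted 0.127). Of the 14 ratios, 11 had groups that did not overlap.

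The order of levels per kilobase of gene length was different in the groups. With ruxolitinib Epor led at 49.2 ± 24.7 CPM per kilobase, followed by Csf2ra, Csf3r and Jak2, and each of these overlapped its neighbour. Il3ra at 10.4 ± 0.745 CPM per kilobase lay apart from Jak2 above and Csf2rb below, and Csf2rb, Il6ra and Il6st overlapped their neighbours. Csf2rb2 was last at 2.12 ± 0.301 CPM per kilobase. In controls Il3ra led at 43.6 ± 18.7 CPM per kilobase, apart from Jak2 at 8.35 ± 0.479 and Csf2ra at 4.37 ± 1.77 CPM per kilobase. Below them Il6st, Csf3r, Csf2rb and Epor overlapped their neighbours at 1.46 to 1.00 CPM per kilobase, with Il6ra and Csf2rb2 lowest at 0.461 ± 0.135 and 0.390 ± 0.129 CPM per kilobase (SD, n = 3 in every group).

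Genes with profiles most like 3 of the 9 were found among 9583 protein-coding genes by the Euclidean distance between centred log2 CPM over the 6 libraries. Among the nearest to Jak2 were Insig1 (distance 0.12), Dhx40 (0.15), Pcgf3 (0.16) and Rtn4 (0.19). Nearest to Epor were Sept8 (0.56), Gm867 (0.61), Pheta2 (0.68), Aqp9 (0.73) and Col5a1 (0.76). Among the nearest to Il6ra were Plbd1 (0.31), Sqor (0.39), Sash1 (0.40) and Tifa (0.41). Jak2 had closer neighbours than Epor, whose values spread more within the ruxolitinib group.

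Other receptors that use JAK2 moved in both directions. Of 10 tested of 15 listed, 7 (70%) were higher, 2 (20%) lower and 1 did not pass. Among all genes tested, 29.9% were higher and 25.3% lower. Of the 7 higher genes, 4, Ghr and Lepr among them, had at most 5 counts in any control pool and passed the filter on low counts through the ruxolitinib pools, so the count is partly set by that filter. Il13ra1, a chain of the IL-13 receptor, was higher by 3.73 ± 0.45 (SE) on the log2 scale and Il11ra1, the IL-11 receptor chain that pairs with gp130, by 1.43 ± 0.29 (SE). The growth hormone receptor gene Ghr and the leptin receptor gene Lepr were higher too, but at 1.74 ± 0.499 and 1.80 ± 0.488 CPM with ruxolitinib, against 0.102 ± 0.0983 and 0.0922 ± 0.160 CPM in controls (SD, n = 3 each). The lower genes were Ifngr1, the ligand-binding chain of the interferon gamma receptor, and Crlf2, the thymic stromal lymphopoietin receptor chain. Ifngr2, the other chain of the interferon gamma receptor, was among the 7 higher genes (log2 fold change 1.58 ± 0.48 (SE), edgeR adjusted p = 0.0185). It had 43.2, 46.5 and 32.4 CPM with ruxolitinib, against 7.85, 6.60 and 26.5 CPM in controls. Ifngr1 had 82.3, 88.0 and 118 CPM with ruxolitinib, against 217, 269 and 170 CPM in controls (log2 fold change -1.18 ± 0.24 (SE), edgeR adjusted p = 0.00279). Crlf2 fell by 1.00 ± 0.28 on the log2 scale (SE, edgeR adjusted p = 0.0135), a call lost without ruxolitinib pool 1 (adjusted p = 0.0748), ruxolitinib pool 2 (0.0524) or control pool 5 (0.0507). Both Ifngr1 and Crlf2 had positive log2 fold changes under scaling to CD8 T cell genes, at 0.82 and 1.01, where neither passed the test.

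The 3 listed receptors of blood formation with a kinase of their own do not use JAK2 for their first step. All 3 were higher, against 29.9% of all genes tested. Csf1r, the receptor of macrophage growth factor, had 329, 309 and 208 CPM with ruxolitinib, against 37.4, 30.8 and 52.2 CPM in controls, and Kit, the stem cell factor receptor, was higher by 1.28 ± 0.29 (SE) on the log2 scale. Flt3, a receptor of early progenitors, had 36, 59 and 56 counts with ruxolitinib, against 0 counts in each control pool. It passed the filter on low counts through the ruxolitinib pools, so the count of 3 is partly set by that filter.

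Few ligands of these receptors were expressed. Of 17 listed, 8 were tested, of which 2 were higher, 1 lower and 5 did not pass, and the median log2 fold change was -0.18. Epo, Il3 and Thpo, which encode erythropoietin, IL-3 and thrombopoietin, had no count in any library. Oncostatin M (Osm), a gp130 ligand that JAK2 and STAT5 signalling induces, was higher, at 66.1, 45.9 and 29.0 CPM with ruxolitinib, against 9.35, 8.49 and 12.2 CPM in controls (log2 fold change 2.23 ± 0.32 (SE), edgeR adjusted p = 0.000390). Kitl, the ligand of Kit, was higher by 2.47 ± 0.44 (SE) on the log2 scale. Flt3l, the ligand of Flt3, fell by 2.41 ± 0.37 on the log2 scale (SE), to 4.31, 4.86 and 8.65 CPM with ruxolitinib, against 21.6, 28.2 and 45.5 CPM in controls, while its receptor gene had counts in the ruxolitinib pools alone.

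STAT genes carry the signal of these receptors to the nucleus. Stat3, the main STAT behind gp130 and the G-CSF receptor, fell by 1.04 ± 0.24 on the log2 scale (SE, edgeR adjusted p = 0.00461). Stat5a and Stat5b, the STATs behind the erythropoietin, IL-3 and GM-CSF receptors, had log2 fold changes of -0.08 ± 0.27 and -0.44 ± 0.21 (SE, edgeR adjusted p = 0.816 and 0.0997). Scaled to CD8 T cell genes, Stat3 was at 0.92, Stat5a was at 1.95 and Stat5b at 1.56.

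**Figure D4:**
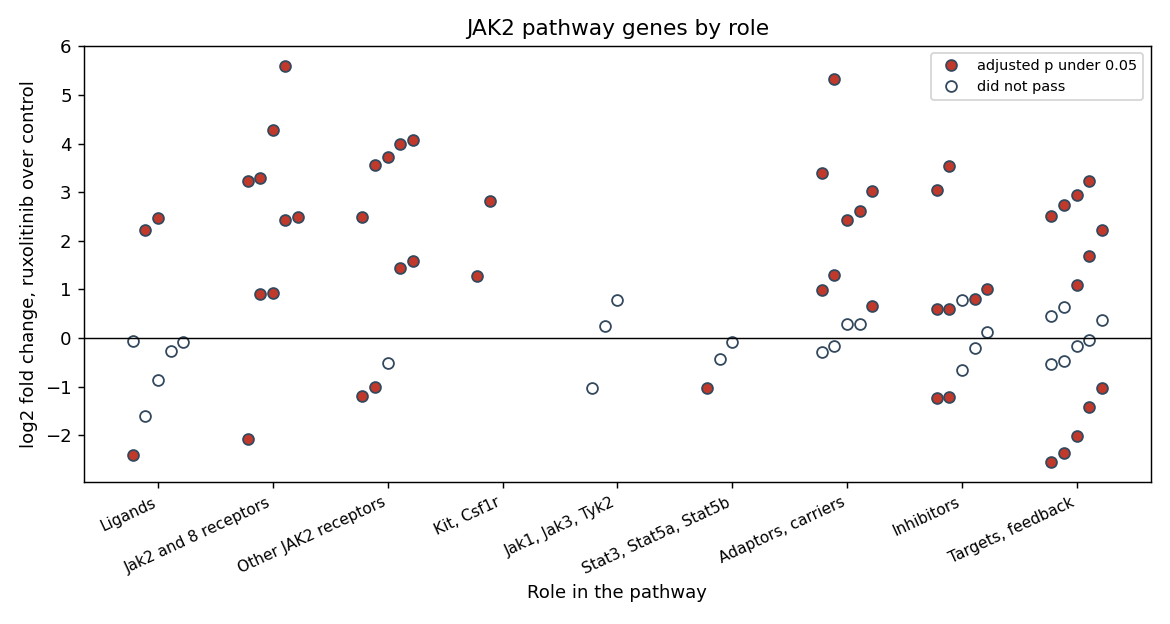
Log2 fold change, ruxolitinib over control, of the tested genes shown by their role in the pathway, filled where edgeR's adjusted p was under 0.05 and open where it did not pass. Flt3 is left out because it had 0 counts in controls. Receptors lie mostly above 0, while Stat3, Stat5a and Stat5b lie below it under TMM scaling and above it when scaled to CD8 T cell genes.

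Targets and feedback genes lay on both sides, in shares near those of all genes tested. Of 20 listed, 19 were tested, and 7 (36.8%) were higher, 5 (26.3%) lower and 7 did not pass, against 29.9% and 25.3% of all genes tested, and the median log2 fold change was 0.38. Higher were the transferrin receptor gene Tfrc (3.24 ± 0.33), the myeloid factor Cebpa (2.74 ± 0.23) and the survival gene Bcl2l1 (2.51 ± 0.32, log2 fold change and SE for each), beside Osm. Lower were the kinase gene Pim2 (-2.56 ± 0.31), the feedback inhibitors Socs1 (-2.36 ± 0.34) and Cish (-2.01 ± 0.48), and Myc (-1.43 ± 0.23, log2 fold change and SE for each). Scaled to CD8 T cell genes, all of these lower calls were lost, and Myc turned to 0.65. The feedback inhibitors Socs2 (0.63) and Socs3 (-0.47) did not pass under TMM scaling (edgeR adjusted p = 0.135 and 0.188). Socs1 had 9.79, 12.8 and 24.2 CPM with ruxolitinib, against 94.1, 81.4 and 64.6 CPM in controls. Tfrc is also a member of the red cell list, whose 13 tested genes were all higher, and the part of red cells in its rise was not tested.

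Inhibitors and adaptors of the receptors were more often higher than lower, as were all genes tested (29.9% higher and 25.3% lower). Of 12 inhibitors and phosphatases, 6 (50%) were higher, 2 (16.7%) lower and 4 did not pass (median log2 fold change 0.60). Of 13 adaptors and signal carriers, 9 (69.2%) were higher, none was lower and 4 did not pass (median 1.30). Sh2b3, which encodes LNK, a brake on JAK2 in blood progenitors, had 79.6, 62.6 and 43.7 CPM with ruxolitinib, against 6.14, 4.70 and 5.04 CPM in controls. Its groups were far apart, with a log2 fold change of 3.54 ± 0.28 (SE, edgeR adjusted p = 2.28e-05). Sh2b2 (3.04 ± 0.77), the ubiquitin ligase gene Cbl (1.00 ± 0.25) and the lipid phosphatase gene Inpp5d (0.80 ± 0.20) were higher as well (log2 fold change and SE for each). Lower were Ptpn2, a phosphatase that acts on JAK1, JAK3 and STATs (-1.22 ± 0.20), and Ptprc, which encodes CD45 (-1.24 ± 0.34, lost without ruxolitinib pool 1, adjusted p = 0.0556, or pool 2, adjusted p = 0.0512), which were at 0.81 and 0.67 when scaled to CD8 T cell genes.

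Among the adaptors and signal carriers, Irs2, an insulin receptor substrate, had the largest change of the named ones (5.33 ± 0.52), followed by Gab2, a docking protein (3.40 ± 0.33), and the kinase Btk (2.62 ± 0.30, log2 fold change and SE for each). Btk is expressed in myeloid and B cells, whose marker genes were higher in the ruxolitinib pools. The part of those cells in the higher Btk was not tested. Over all 8 pathway lists, counting each gene once, 33 genes were higher and 12 lower under TMM scaling, and 54 and 0 when scaled to CD8 T cell genes. Of the 71 pathway genes tested these were 46.5% higher and 16.9% lower under TMM scaling, against 29.9% and 25.3% of all genes tested, and 76.1% higher under CD8 T cell gene scaling, close to the 72.4% of all genes tested.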

How the data were processed

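RNA of 6 libraries was made with the NEBNext Ultra II RNA kit, per the labels' protocols. HISAT2 2.0.5 and the mm10 mouse genome are named per the submitters' processing notes. The counting program, its strand setting, its handling of reads that match several genes, the annotation release, the drug dose and the duration of treatment were not given in the sources used here. The authors deposited raw counts per gene, not normalised, with a gene length in bases as another deposited column. Of the 9 genes, 8 had the same position and ID in GENCODE M21, and Csf2ra did not.

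Differences in counts were assessed in edgeR 4.0.16 (R 4.3.3) after filterByExpr, which left 13480 genes, with TMM factors, glmQLFit with robust estimation and glmQLFTest, group as the only term, and Benjamini-Hochberg adjustment over all genes tested with a threshold of 0.05. The SE is the size of the log2 fold change divided by the square root of F. Ratios used log2 CPM with a prior count of 0.5 and exact two-sided permutation tests. The scripts were tested on simulated data. Libraries held 13829808 to 17708196 counts, so values near 1 CPM rest on few reads. Pools hold different mice, so the spread is between pools of animals.

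The 9 genes and the 8 pathway and 10 cell type lists were chosen with earlier results of these data known. All 9 genes were named. Of each pathway list, up to 4 called genes with the smallest p in each direction were named, or the gene with the smallest p where none was called, and every gene of a list of 4 or fewer. Of the cell type lists, the 2 most abundant genes were to be named, and are left out where no result turned on them. Siglech, Klk1, Klf1, Epb42, Ly6d, Mmp8, Prtn3, Mpo, Elane, Ctsg, Epo, Il3 and Thpo were named after their values were seen. So were Ifngr2, Socs2, Socs3, Ccr2 and Cx3cr1. The results of some genes that these rules take are left out here. Alternatives were RLE, upper-quartile and total-count scaling, TMM without haemoglobin genes, scaling to the CD8 T cell genes, other filters, DESeq2 1.42.0, limma-voom (limma 3.58.1) with and without quality weights, and leaving out each pool. Promoters came from RefSeq (8 of 9 genes matched) and coding sequences from GENCODE M21. Genes overlapping the 9 on either strand had 0 counts.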

Additional observations from a re-analysis of the deposited data

How the results depend on the processing

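Under each other scaling, filter and tool except scaling to the CD8 T cell genes, 8 of the 9 genes were higher and Il3ra lower. Scaling to the CD8 T cell genes, which reports every gene relative to T cell RNA, moved the median of all genes tested to 2.10, with 9754 genes higher and 54 lower, against 4037 and 3407 under TMM. There 0 of the 9 genes were lower, Il3ra was at -0.11, 54 pathway genes were higher and 0 lower, and 0 cell type genes were lower. Under TMM 18 cell type genes were lower, 15 of them the CD8 T cell genes. This scaling sets the mean log level of those 15 genes equal in all libraries, so the loss of their calls is no separate result. The sign also turned there for Jak3 (0.89), Ifngr1 (0.82), Crlf2 (1.01), Stat3 (0.92), Stat5a (1.95), Stat5b (1.56), Myc (0.65), Ptpn2 (0.81), Ptprc (0.67), Runx2 (1.26), Pf4 (1.36) and Pecam1 (1.69). Whether the CD8 T cell genes themselves respond to the drug was not tested.

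With single pools left out, 7 to 8 of the 9 genes were higher, Il6st ranged from 0.74 to 1.11, Il3ra from -2.29 to -1.68, Epor from 5.12 to 5.84 and Jak2 from 0.87 to 0.95. Stat5a ranged from -0.31 to 0.12 and Pf4 from -0.94 to 0.17. Pf4 was at 0.19 by limma-voom with quality weights. The cause was not tested. Control values of Epor, Csf3r and Csf2rb2 rest on few counts, down to 18 for Csf2rb2 in control pool 5. No paired analysis was possible because the pools are numbered 1 to 3 and 4 to 6 and share no number. No group had enough pools to look for a library that stands apart by its spread.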
